A study of Drosophila melanogaster with 63 samples.

Results

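The comparison set embryos labelled as mutants for even skipped (eve) at 6 h after egg laying, with 3 arrays, against embryos labelled as eve mutants at 3 h after egg laying, with 3 arrays, so that 6 of the 63 arrays of the series were its members. They were taken by genotype and hours as the labels give them. The series also holds ftz (fushi tarazu) mutants and wild type embryos of Drosophila melanogaster, and the 6 arrays of ftz mutants at 6 h and 3 h and the 6 of wild type at 6 h and 3 h serve here for comparison. Stocks of both mutants carried balancers marked with GFP, and the staged embryos were sorted by genotype, per the labels; alleles, the age window of a collection and the number of embryos per array are unknown here. Every array set total RNA of whole embryos, in Cy3, against a common reference of embryos from 0 to 22 h, in Cy5. Nothing in the labels says that the 3 arrays of a group came from separate collections, so the p-values measure the spread between arrays, which may be technical.

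Even skipped encodes a homeodomain repressor of the pair-rule class, the set of genes that divide the blastoderm into a series of stripes and so prepare the segments. At 3 h a Drosophila embryo is completing cellularization, when membranes close around the nuclei of the syncytial blastoderm, and most of its transcripts are either maternal or among the earliest zygotic ones. By 6 h the germ band has extended, neuroblasts are being singled out by Notch signalling and the epidermis is forming its junctions. Embryos that lack eve function form a lawn of denticles without segments, but their germ layers and tissues do appear.

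A value is the deposited log ratio of a sample to the common reference, taken as log2, with sample over reference as the likely direction; it is a level relative to that reference, not an amount of RNA. A difference is the mean of the 6 h arrays minus the mean of the 3 h arrays on that scale, so that 1 unit is a doubling, and a feature is described as called where the Benjamini-Hochberg adjusted p of limma, fitted over all 63 arrays, was under 0.05. In RNA of whole embryos, fewer cells of a type and less RNA per cell cannot be told apart.

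The eve transcript was looked at first, since it bears on the labels. It stood at -0.87, -0.77 and -0.97 in the 6 h arrays labelled eve mutant, against 0.00, 0.13 and 0.37 in the 3 h arrays. The groups did not overlap, and the difference was -1.04 (SE 0.16, limma adjusted p = 2.63e-06). Set against wild type of the same age, eve was lower by -0.65 at 6 h (limma adjusted p = 0.00692). At 3 h the difference from wild type was 0.21 (limma adjusted p = 0.499), so this transcript did not set the 3 h arrays apart from wild type. At 2 h, by contrast, the eve-labelled arrays averaged -1.20, which was -1.71 from wild type (limma adjusted p = 3.11e-11). Whether the allele removes the transcript is not known here, so the 3 h arrays are called eve-labelled throughout, and every direction drawn from them rests on that label. The ftz transcript, the pair-rule gene expressed in the alternate stripes, was at -0.28, -0.40 and -0.62 in the 6 h arrays and -0.01, 0.09 and 0.12 in the 3 h arrays, a difference of -0.50 (limma adjusted p = 0.0102). In the 2 h arrays ftz too lay -1.14 from wild type (limma adjusted p = 1.53e-07), so a low value there was not particular to eve. Those 2 h arrays correlated with the wild type mean of 2 h at Pearson's r of 0.587, 0.574 and 0.549.

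The labelled ages were set against the wild type time course. Over 12424 features, the 6 h arrays correlated best with the wild type means of 8, 7 and 8 h, at Pearson's r of 0.744, 0.814 and 0.767, while the wild type arrays at 6 h each correlated best with 7 h. The 3 h arrays correlated best with wild type at 3, 2 and 2 h, at r of 0.795, 0.791 and 0.782, and the wild type arrays at 3 h each with 3 h when set against the remaining arrays. For every 3 h eve-labelled array the values for 2 h and 3 h were nearly equal, and the wild type arrays at 3 h had a clear peak at 3 h, as the plot of resemblance shows. These correlations run over features that share arrays and are descriptions. The 3 h arrays were also more alike among themselves, with r between 0.928 and 0.953, than the 6 h arrays, with r between 0.790 and 0.852. By the slide numbers in the titles the 3 h arrays were 94, 95 and 96, a run of consecutive numbers, while the 6 h arrays were 64, 69 and 86. The numbers 64 and 69 also stand in titles of ftz arrays, at 3 h and 2 h, so a number need not name a single slide. No run held both ages of the eve-labelled embryos, so slide run and age cannot be told apart within these 6 arrays.

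**Figure D1:**
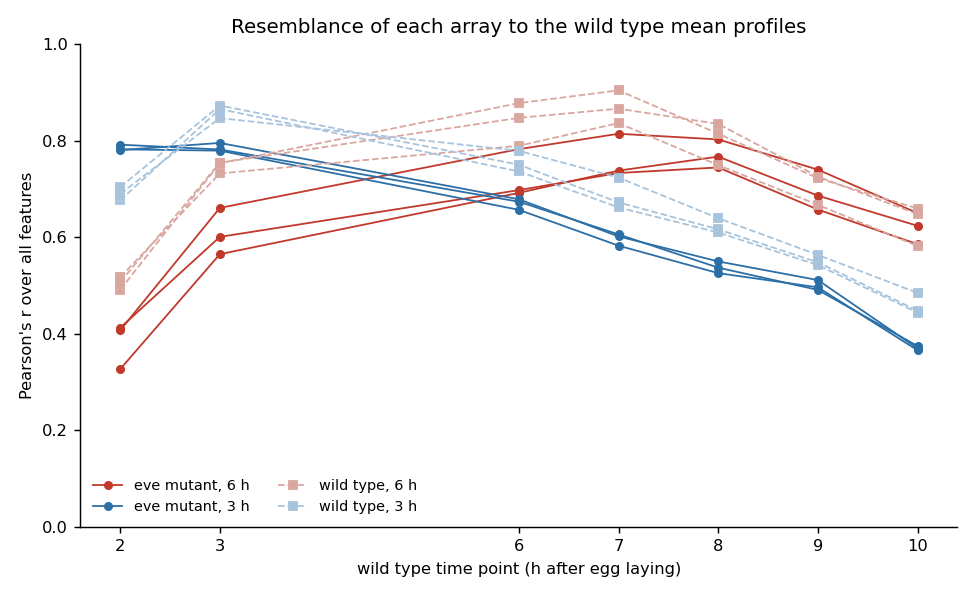
Pearson's r over 12424 features (vertical axis) of each of 12 arrays with the mean wild type profile at each time (horizontal axis, h after egg laying); solid lines are eve-labelled arrays, dashed lines wild type arrays, which were set against the other arrays where they share a time. The 6 h arrays of eve-labelled embryos peak at 7 or 8 h and the 3 h arrays lie nearly level between 2 and 3 h.

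Between 3 h and 6 h many transcripts changed in both directions. Of 12424 features, 3257 were called (26.2%), 1516 higher at 6 h (12.2%) and 1741 lower (14.0%), and the median size of a called difference was 0.57. A change of at least 1.5-fold was seen in 1561 of them and of at least 2-fold in 404. Among the 9292 named genes 11.6% were called higher and 15.4% lower. In the ftz step from 3 h to 6 h 3028 features were called (24.4%; 12.3% higher and 12.0% lower), and in the wild type step 900 (7.24%; 3.70% higher and 3.54% lower). The 6 arrays did not overlap between the ages for 6083 features (49.0%), among them 3162 of the called ones. With a term for slide runs, which is linked to the 3 h arrays by only 1 wild type array of 10 h, the median standard error of a difference went up to 0.313, against 0.138, and 427 features were called, 286 of them among the 3257.

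The called features were also looked for in differences taken between other arrays. Those arrays still had a part in the calls, since the fit over all arrays set the variance. In eve-labelled embryos at 7 h against 2 h, 86.6% of the called features had the same sign, beside 68.9% of all features. The 7 h arrays, on slides 65, 70 and 87, lay in the same slide runs as the 6 h arrays, on slides 64, 69 and 86. Whether the shared sign followed age or slide run was not tested. The share with the same sign was 82.6% in the ftz step, beside 63.5% of all features, and 74.4% in the wild type step, beside 58.8%. Features called in the same direction in both steps made up 42.8% of the eve calls and 46.0% of the ftz calls, and 11.7% of the eve calls and 42.2% of the wild type calls.

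The 12 largest differences upward included a ubiquitin gene, a lipid carrier, several transporters, a gap junction protein and a cell adhesion protein. Ubi-p63E, a polyubiquitin gene, stood at 0.88, 0.73 and 1.30 in the 6 h arrays, against -1.42, -1.38 and -1.48 in the 3 h arrays. The difference of 2.40 (SE 0.21, limma adjusted p = 7.28e-12) was 0.94 above that of wild type (adjusted p = 0.0394). Next came apolpp, which encodes the apolipoprotein of the main lipid carrier of the haemolymph, at -0.81, -0.70 and 0.08 in the 6 h arrays and -2.60, -2.90 and -3.02 in the 3 h arrays. It stayed below or about level with the reference at 6 h, yet the groups were far apart, by 2.36 (SE 0.35).

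The rest of these 12 included transporters, a grouping made after the values were seen and not tested. Smvt, named for a sodium-dependent multivitamin transporter, rose by 2.04, Oatp58Dc, an organic anion transporter, by 1.88, Cln7, a lysosomal membrane protein, by 1.76 and Ent2, a nucleoside transporter, by 1.76. Obp99a, of the odorant binding protein family, was at 0.96, 1.01 and 0.99 in the 6 h arrays, against -1.15, -0.98 and -1.11 in the 3 h arrays. Ama (amalgam), a secreted cell adhesion protein of the immunoglobulin superfamily, reached 2.24, 2.14 and 1.97 in the 6 h arrays, against 0.29, 0.10 and 0.53 in the 3 h arrays. The cuticle gene Ccp84Ad was uneven at 6 h, with 1.47, 1.19 and -0.30, against -1.47, -1.30 and -1.06 at 3 h, so that 1 array of 3 lay well below the other two. Of the 12, CG7763 and CG4194 have no role given here.

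**Figure D2:**
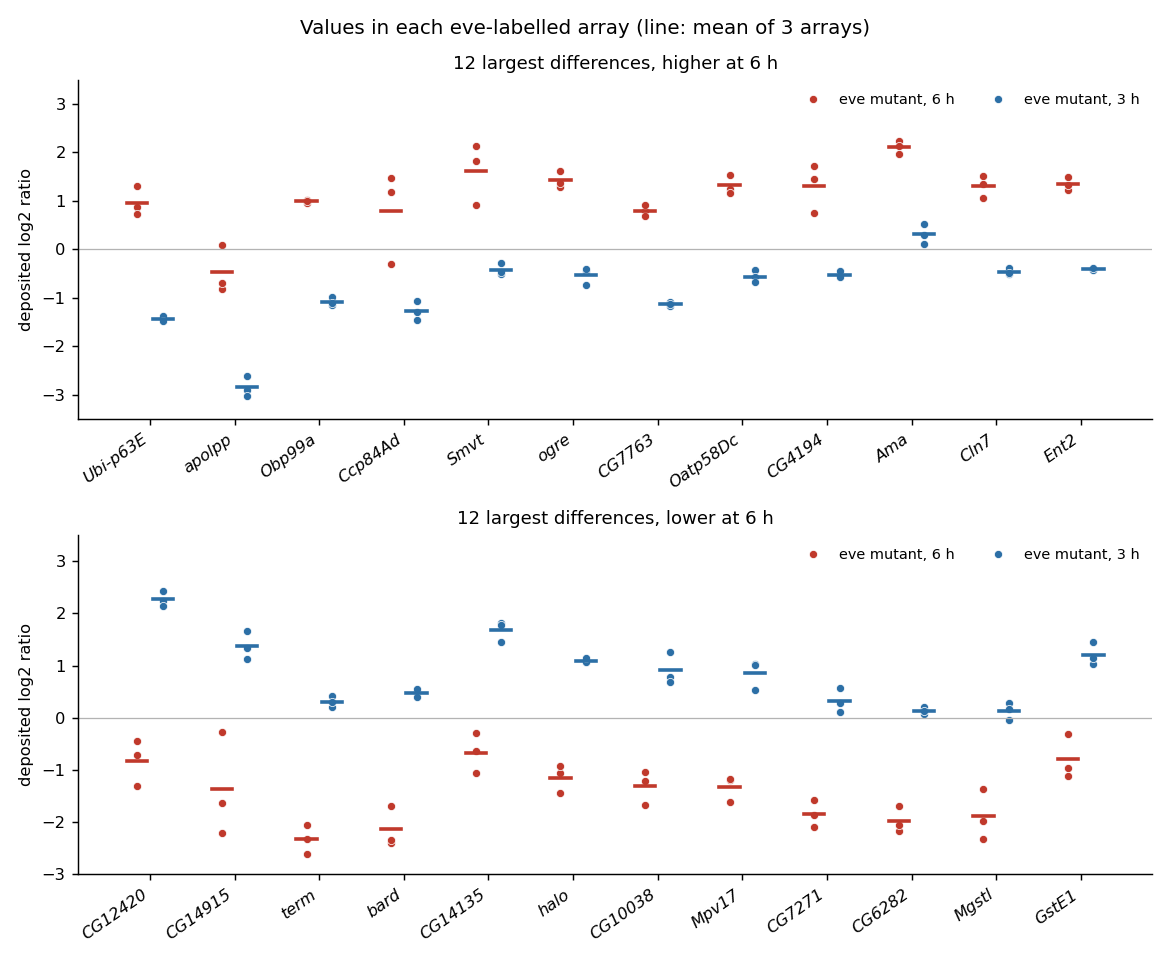
Deposited log2 ratios (vertical axis) of the 12 largest differences upward (top) and downward (bottom), with a point for each of the 3 arrays at 6 h (red) and at 3 h (blue) of eve-labelled embryos and a line at the mean. The ages do not overlap for any of the 24 genes, a condition of their choice; the widest spread within an age is that of CG14915 and Ccp84Ad at 6 h.

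The largest differences downward included early zygotic transcripts. The uncharacterised CG12420 stood at -0.44, -0.72 and -1.30 in the 6 h arrays and 2.24, 2.43 and 2.14 in the 3 h arrays, which gave -3.09 (SE 0.24, limma adjusted p = 2.29e-13). It also fell in the wild type step, by -1.79, and the eve step was larger by -1.30 (adjusted p = 0.0127). The gene term (terminus) was at -2.60, -2.05 and -2.32 in the 6 h arrays, against 0.21, 0.41 and 0.30 in the 3 h arrays. halo, which directs the movement of lipid droplets during cellularization, was at -1.44, -1.06 and -0.93 in the 6 h arrays, against 1.06, 1.06 and 1.15 in the 3 h arrays, a difference of -2.23 (SE 0.22, adjusted p = 3.05e-10).

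Other members of these 12 included glutathione transferases and a mitochondrial membrane protein, picked out after the values were seen and not tested as a group. Mgstl, a microsomal glutathione transferase, had a difference of -2.02, GstE1, a cytosolic glutathione transferase, of -2.01, and Mpv17, of an inner mitochondrial membrane protein family, of -2.18. CG14915, at -2.74, had the widest spread at 6 h, with -0.28, -2.20 and -1.64. Of the 24 genes in both directions, 8 were called with the term for slide runs as well, namely CG7763, CG12420, term, CG14135, halo, CG10038, Mpv17 and GstE1, so 1 of the 12 higher and 7 of the 12 lower genes.

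Notch targets of the E(spl) and Brd complexes, which encode bHLH repressors and Bearded family proteins that hold back neural fate, were higher at 6 h. Of 12 measured members 9 were called higher, against 12.2% of all features, and none lower; all 12 differences lay above 0 and their median was 0.74, against 0.00 over all features. The bHLH gene E(spl)m7-HLH was at 2.06, 1.46 and 1.60 in the 6 h arrays, against 0.51, 0.42 and 0.10 in the 3 h arrays, a difference of 1.36 (SE 0.19, limma adjusted p = 2.99e-07). E(spl)m3-HLH stood at 1.10, 0.64 and 1.01 in the 6 h arrays, against -0.47, -0.46 and -0.45 in the 3 h arrays. Ocho, a Bearded family gene, was at 1.52, 1.30 and 1.19 in the 6 h arrays, against 0.00, 0.01 and -0.17 in the 3 h arrays. In every array of these 3 genes the 6 h values exceeded the 3 h values, where the ages did not overlap for 49.0% of all features.

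The same 3 genes were called against the wild type step, by 0.85 for E(spl)m7-HLH, 0.84 for E(spl)m3-HLH and 1.11 for Ocho, with adjusted p of 0.0353, 0.019 and 0.0298. The other 9 of the 12 were not called there, where 3.73% of all features were called higher and 4.69% lower. The wild type step itself had 3 of the 12 called higher and none lower, with a median of 0.49, beside 3.70% and 3.54% of all features. The list median over the eve-labelled time course was -0.17 at 2 h, 0.40 at 3 h, 1.33 at 6 h, 1.13 at 7 h, 0.95 at 8 h, 0.66 at 9 h and 0.67 at 10 h. In wild type it was -0.25, 0.32, 0.70, 0.74, 1.06, 0.91 and 0.55 at the same times, so the highest median came at 6 h in eve-labelled embryos and at 8 h in wild type. In ftz mutants it was 0.07, 0.74, 0.85, 0.82, 0.91, 0.55 and 0.37, also highest at 8 h. The ftz step too had 7 of the 12 called higher and none lower, with a median of 0.60, beside 12.3% of all features called higher. Against the ftz step 1 of the 12 was called higher and none lower, beside 3.31% and 3.22% of all features. With the term for slide runs the rise of the list in eve-labelled embryos was not kept, and its median was -0.06. E(spl)m7-HLH was then called at 1.44 and Brd was called lower at -1.73, and Ocho had a difference of -0.25.

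**Figure D3:**
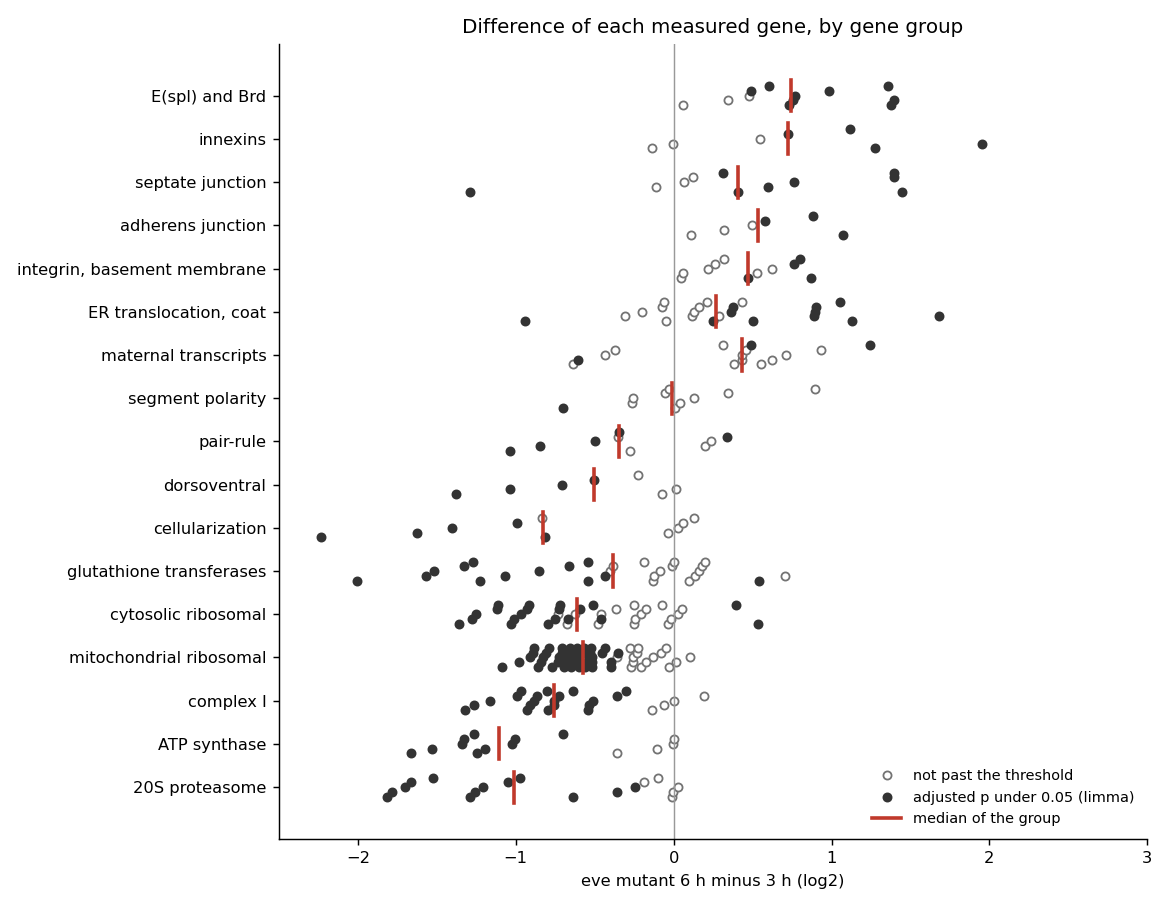
Difference between eve-labelled embryos at 6 h and at 3 h (horizontal axis, log2) for each measured gene of 17 groups; filled points are called, open points are not, and the red line is the median of the group. Filled points of the 6 upper groups lie mostly right of 0 and those of the 7 lower groups mostly left of it.

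Called genes of cell junctions were mostly higher at 6 h, where 12.2% of all features were called higher and 14.0% lower. These families were drawn up by gene name after the lists had been read. Gap junctions of insects are made of innexins, and 4 of 7 measured innexins were called higher and none lower, with a median of 0.72. ogre, also known as innexin 1, was at 1.29, 1.37 and 1.61 in the 6 h arrays, against -0.44, -0.41 and -0.73 in the 3 h arrays (1.95, SE 0.24, limma adjusted p = 2.1e-08). Another innexin, Inx2, was at 1.08, 0.87 and 1.53 in the 6 h arrays, against -0.01, -0.19 and -0.15 in the 3 h arrays. Inx3 rose by 1.12 and Inx7 by 0.72. In all 4 the groups did not overlap, as held for 49.0% of all features and 3162 of the 3257 called ones.

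All 4 of these innexins were also called against the wild type step, by 1.90 for ogre, 1.39 for Inx2, 1.08 for Inx3 and 1.06 for Inx7, where 3.73% of all features were called higher. In the wild type step itself ogre changed by 0.06 and no innexin was called. In the ftz step 1 innexin was called higher and 1 lower. Against the ftz step 3 were called higher and none lower, beside 3.31% and 3.22% of all features. Over the time course ogre averaged -1.87 at 2 h, -0.53 at 3 h and 1.43 at 6 h in eve-labelled embryos, and -0.80, 0.42 and 0.48 in wild type. None of the 7 innexins was called with the term for slide runs, under which their median was 0.25.

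Of 11 septate junction genes, which form the paracellular barrier of insect epithelia, 7 were called higher and 1 lower, with a median of 0.41. Nrx-IV, a transmembrane core component, was at 0.50, 0.47 and 0.22 in the 6 h arrays, against -0.82, -0.94 and -1.24 in the 3 h arrays. nrv2, a subunit of the sodium pump needed in these junctions, rose by 1.45, and Nrg (Neuroglian), a cell adhesion protein, by 1.39. vari, a scaffold protein of the same junctions, was the one that fell, by 1.29. Of 6 adherens junction genes 3 were called higher and none lower, with shg, the E-cadherin gene, at 0.78, 0.77 and 0.54 in the 6 h arrays and -0.27, -0.30 and -0.56 in the 3 h arrays. Of 11 genes of integrins and the basement membrane 4 were called higher and none lower, among them mys, the main integrin beta subunit, at 0.80 and trol, the perlecan gene, at 0.87. Most of these calls ended with the term for slide runs. It left 1 of the 11 septate junction genes called, Nrx-IV, at 1.40 beside 1.39 without the term, and none of the adherens junction genes or of those of integrins and the basement membrane. The medians were then 0.27, 0.02 and 0.43, beside 0.41, 0.54 and 0.47 without the term. The ftz step had 6 of the 11 septate junction genes and 6 of the 6 adherens junction genes called higher, and none lower. Of the 11 genes of integrins and the basement membrane it had 3 called higher and 1 lower. Over all features it had 12.3% called higher and 12.0% lower.

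The machinery that brings proteins into and out of the endoplasmic reticulum showed 10 genes called higher and 1 lower of 22, beside 12.2% and 14.0% of all features, with a median of 0.27. betaCOP, a subunit of the COPI coat, was at 0.54, 0.70 and 0.46 in the 6 h arrays, against -0.63, -0.51 and -0.55 in the 3 h arrays. SrpRalpha, a subunit of the receptor for the signal recognition particle, rose by 1.06 and TRAM, of the translocon, by 1.68, while Srp9 fell by 0.94. The wild type step had 4 of the 22 called higher and none lower, with a median of 0.31, beside 3.70% and 3.54% of all features. In the ftz step 5 were called higher and 2 lower, with a median of 0.17, beside 12.3% and 12.0%. Against the wild type step 2 of the 22 were called higher and none lower, beside 3.73% and 4.69%. With the term for slide runs 2 of the 22 were called higher, Sec16 and Sec63, and 1 lower, Sec61gamma, and TRAM had a difference of -0.32.

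Many nuclear genes of the respiratory chain and of ATP synthase were called lower at 6 h. The nuclear genes of respiratory complex I, the first enzyme of the mitochondrial electron transport chain, had 20 of 24 members called lower and none higher, against 14.0% of all features, with a median of -0.76. ND-B14.7 was at -0.58, -0.72 and -0.68 in the 6 h arrays, against 0.58, 0.43 and 0.79 in the 3 h arrays. Of 14 ATP synthase genes 10 were called lower and none higher, with a median of -1.11. ATPsynD, which encodes a stalk subunit, stood at -1.52, -1.18 and -1.63 in the 6 h arrays, against 0.32, 0.13 and 0.21 in the 3 h arrays. Of 9 cytochrome c oxidase genes 5 were called lower, COX5A at -1.07 and COX4 at -1.19 among them, and 4 were not called. Of 8 genes of glycolysis, the cytosolic pathway that breaks down glucose, 1 was called, Ald1 (aldolase) at -0.64, and the median was -0.18.

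Mitochondrial ribosomal proteins moved the same way, with 43 of 58 called lower, against 14.0% of all features, none higher and a median of -0.57. mRpL1 was at -0.54, -0.28 and -0.33 in the 6 h arrays, against 0.38, 0.36 and 0.30 in the 3 h arrays. The spread was narrow, since the median of the 58 lay between -0.25 and -0.09 in the 6 h arrays and between 0.33 and 0.34 in the 3 h arrays. Cytosolic ribosomal proteins were less even, with 18 of 36 called lower and 2 higher, RpL10Aa and RpLP0-like. RpS21, of the small subunit, was at -0.61, -0.44 and -0.64 in the 6 h arrays, against 0.81, 0.57 and 1.02 in the 3 h arrays.

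The 20S proteasome, the barrel that degrades ubiquitin-tagged proteins, had 13 of 18 genes called lower and none higher, with a median of -1.01. Prosbeta3 was at -1.47, -1.65 and -1.86 in the 6 h arrays, against 0.12, 0.27 and 0.08 in the 3 h arrays, and Prosbeta5, a catalytic subunit, was at -0.59, -1.06 and -1.09 in the 6 h arrays, against 0.92, 0.79 and 0.55 in the 3 h arrays. The 19S regulator, which feeds substrates into the barrel, had 2 of 16 called higher and 3 lower, beside 12.2% and 14.0% of all features. Its Rpn1 was at 1.09. Glutathione transferases had 12 of 27 called lower and 1 higher, GstO3.

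Against the wild type step, 8 of 18 genes of the 20S proteasome, 9 of 24 of complex I, 8 of 14 of ATP synthase and 7 of 27 glutathione transferases were called lower, where 4.69% of all features were, and none of these groups had a member called higher. Of the 58 mitochondrial ribosomal proteins 6 were called lower there and none higher. In the ftz step itself 12 of the 18 20S genes, 14 of the 24 of complex I and 9 of the 14 of ATP synthase were called lower. So were 8 of the 27 glutathione transferases and 40 of the 58 mitochondrial ribosomal proteins, beside 12.0% of all features. ATP synthase and the glutathione transferases each had 1 gene called higher in that step. Against the ftz step ATPsynCF6 of ATP synthase was called lower, at -0.71, Prosalpha4T2 of the 20S proteasome higher, at 0.47, and of the glutathione transferases GstD9 lower, at -0.99, and GstO3 higher, at 0.84. Complex I had none called in either direction there, where 3.31% of all features were called higher and 3.22% lower. Both ages stood apart from wild type in the median of the 20S genes, which was 0.26 in eve-labelled embryos and -0.05 in wild type at 3 h, and -0.83 and -0.43 at 6 h. With the term for slide runs 4 of the 20S genes, 2 of complex I, 2 of ATP synthase and 4 of the mitochondrial ribosomal proteins were called lower, none was called higher, and the medians lay at -0.84, -0.56, -0.84 and -0.41.

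**Figure D4:**
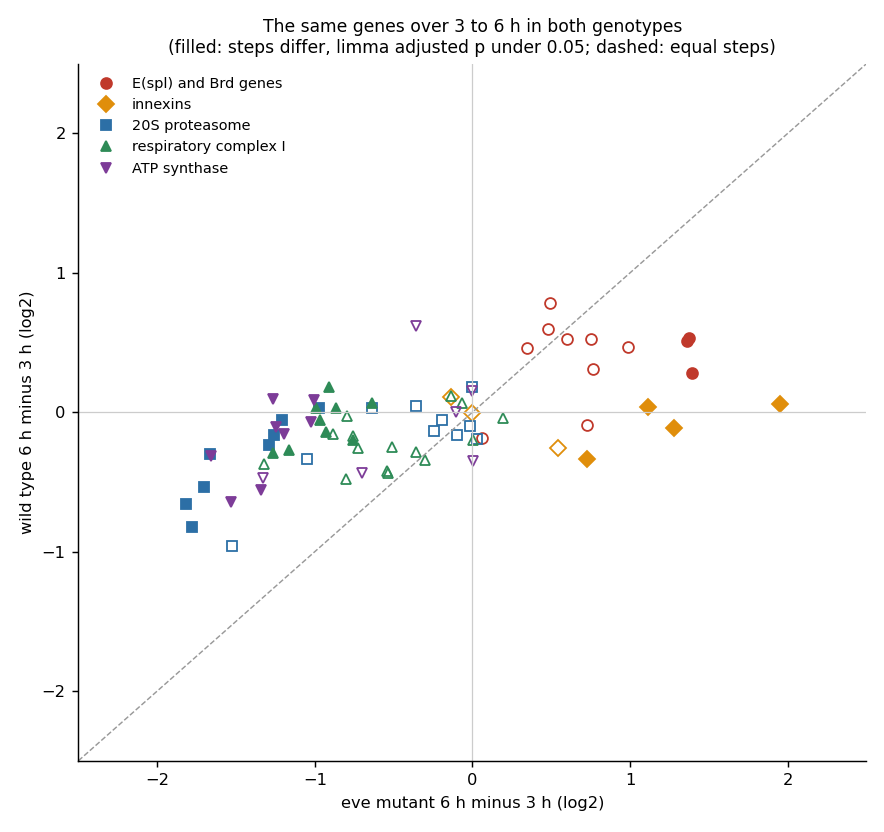
Difference between 6 h and 3 h in eve-labelled embryos (horizontal axis, log2) and in wild type (vertical axis, log2) for each gene of 5 groups; filled symbols mark genes whose steps differed at an adjusted p under 0.05 and the dashed line marks equal steps. Filled innexins and E(spl) genes lie right of the line, and filled genes of the 20S proteasome, complex I and ATP synthase left of it.

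The groups with many genes called lower consist of short genes, and gene length moved with the calls. By the RefSeq gene span, known for 9289 of the 9292 named genes, and with the named genes in 5 length classes of equal size, the shortest class had 26.5% called lower and 3.87% higher, and the longest class 4.84% lower and 22.8% higher. The corresponding shares of the ftz step in the shortest class were 18.6% and 4.52%, and those of the wild type step 5.0% and 2.74%. In the longest class the ftz step had 4.95% lower and 24.1% higher, and the wild type step 2.91% and 4.52%. The median of the longest class minus that of the shortest was 0.02, -0.03 and 0.01 in the 6 h and -0.24, -0.26 and -0.25 in the 3 h eve-labelled arrays. In the ftz arrays it was -0.08, -0.08 and -0.02 at 6 h and -0.22, -0.27 and -0.24 at 3 h. In the wild type arrays it was -0.07, -0.02 and -0.04 at 6 h and -0.11, -0.11 and -0.11 at 3 h. At 3 h it was thus further below 0 in both mutants than in wild type. The median gene length was 916 bases for mitochondrial ribosomal proteins, 1186 for complex I, 1163 for ATP synthase and 1201 for the 20S proteasome, against 2356 over all measured genes, and 9093 for the septate junction genes. After a smooth trend on length had been taken off, 2306 of 9289 named genes were called, with 16 of 24 genes of complex I, 10 of 14 of ATP synthase, 11 of 18 of the 20S proteasome and 35 of 58 mitochondrial ribosomal proteins called lower. The 12 E(spl) and Brd genes, with a median length of 971, went against the trend, and 11 of them were called higher after it had been taken off, beside 9 before. The counts called lower were then 14 of 36 for cytosolic ribosomal proteins, 5 of 9 for cytochrome c oxidase, 11 of 27 for glutathione transferases and 7 of 55 for the Cpr cuticle proteins, of which 14 were called lower without this step. Those called higher were 4 of 7 innexins, 5 of 11 septate junction genes, 2 of 6 adherens junction genes, 3 of 11 genes of integrins and the basement membrane and 8 of 22 of the endoplasmic reticulum machinery.

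**Figure D5:**
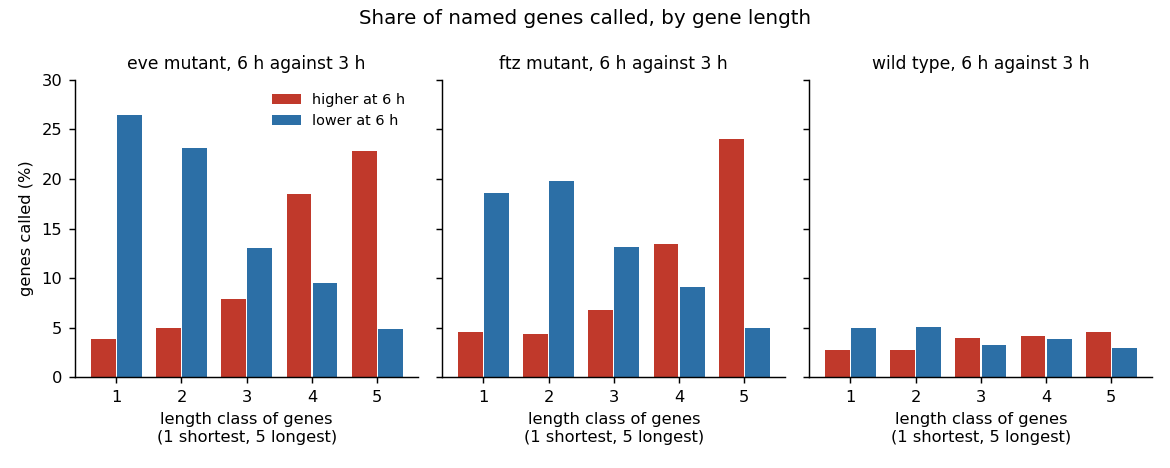
Percent of named genes called (vertical axis) in each of 5 length classes of genes (horizontal axis), with red bars for genes higher and blue bars for genes lower at 6 h, for eve-labelled embryos, ftz mutants and wild type. In eve-labelled embryos the share called lower was 26.5% in the shortest class and 4.84% in the longest.

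The genes that pattern the embryo moved gene by gene. Counts of their lists stand beside 12.2% of all features called higher and 14.0% lower. Of 9 measured pair-rule genes 4 were called lower and 1 higher, with a median of -0.34. Besides eve and ftz, prd (paired) fell, with 0.19, -0.34 and -0.21 in the 6 h arrays and 0.68, 0.73 and 0.77 in the 3 h arrays. hry (hairy) was called at -0.34, though its rows on the array moved in opposite directions, and ftz-f1, the nuclear receptor partner of ftz, was called at 0.34. odd, slp2, sob and Ten-m, at -0.28, -0.35, 0.20 and 0.24, were not called.

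Of 10 segment polarity genes, which fix the pattern within each segment after the pair-rule genes, 1 was called. gsb (gooseberry) stood at 0.55, 0.73 and 0.14 in the 6 h arrays, against 1.16, 1.35 and 1.02 in the 3 h arrays, a difference of -0.70 (SE 0.21, limma adjusted p = 0.00872). In wild type gsb changed by 0.66, and the eve step lay -1.36 from it (adjusted p = 0.00255). Its mean in eve-labelled embryos was 1.18 at 3 h, 0.48 at 6 h, 0.12 at 7 h and -0.10 at 8 h, and in wild type it was 0.61, 1.27, 1.18 and 0.65. en (engrailed), which depends on eve for its stripes, was at 0.06, 0.04 and 0.08 in the 6 h arrays and 0.06, 0.10 and -0.01 in the 3 h arrays, a difference of 0.01. Its step lay -0.69 from that of ftz mutants (adjusted p = 0.0245) and -0.15 from that of wild type (adjusted p = 0.705). The rest, inv, hh, ci, gsb-n, nkd, smo, mid and H15, had differences between -0.27 and 0.90 and were not called; ci was the highest, at an adjusted p of 0.0542.

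Of 3 genes on the homeotic list, tsh (teashirt), a trunk identity gene, rose by 1.45, with 1.35, 1.14 and 1.09 in the 6 h arrays and -0.29, -0.07 and -0.41 in the 3 h arrays, and Dfd and Scr were not called. The tsh step was 1.35 above that of wild type (adjusted p = 0.00531). Of 10 gap and terminal genes only Kr (Krüppel) was called, at 0.67. Of 7 dorsoventral regulators 4 were called lower and none higher: zen at -1.38 and zen2 at -0.50, both of the dorsal side, twi (twist), of the mesoderm, at -0.70, and ind, of the intermediate neural column, at -1.04. ind was at 0.11, 0.08 and 0.08 in the 6 h arrays, against 0.88, 1.06 and 1.45 in the 3 h arrays, and its step lay -1.24 from that of wild type (adjusted p = 1.5e-05), where ind changed by 0.20.

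Some genes of the blastoderm itself fell. Of 10 genes of cellularization and the earliest zygotic transcription 5 were called lower and none higher, beside 14.0% and 12.2% of all features, with a median of -0.82. bnk (bottleneck), which paces the closing of the furrows, was at -0.93, -0.99 and -0.69 in the 6 h arrays, against 0.55, 0.52 and 0.54 in the 3 h arrays. Elba2 and Elba3, of an early embryonic insulator complex, were called at -0.82 and -0.99, and CG14427 at -1.62. nullo, fog, T48 and mthl1 had differences between -0.04 and 0.13 and were not called. Sry-alpha, which organises the actin of the closing furrows, was not called either, at -0.83 (limma adjusted p = 0.0693), with -0.67, -1.62 and -0.70 in the 6 h arrays, against -0.12, -0.11 and -0.26 in the 3 h arrays. Under the term for slide runs 3 members were called lower, halo, CG14427 and Sry-alpha, the last at -2.98. halo and 1 other gene of this list, T48, differed from the wild type step, at -2.03 and 0.34.

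Maternal transcripts, loaded into the egg and cleared around the onset of zygotic transcription, had 2 of 15 genes called higher and 1 lower, beside 12.2% and 14.0% of all features, and the median difference was 0.44. This direction turned with the 2 h arrays of eve-labelled embryos in place of the 3 h arrays, where 5 were called lower and 1 higher and the median was -0.39. The median was -0.15, with none called, under the term for slide runs. alphaTub67C, the maternal alpha tubulin, was at 0.28, -0.13 and 0.14 in the 6 h arrays, against -1.13, -1.26 and -1.06 in the 3 h arrays, a difference of 1.25 where wild type changed by -0.21. With the term for slide runs its difference was -0.15. The localised RNA osk and exu, whose product localises RNAs in the egg, with differences of 0.63 and 0.93, were not called but lay 1.25 and 1.62 above their wild type steps (adjusted p = 0.0368 and 0.0409). The list median of eve-labelled embryos was -0.22 at 2 h, -0.59 at 3 h and -0.78 at 6 h, and that of wild type was -0.56, -0.97 and -1.18. The median level was thus lower at 6 h than at 3 h while the median of the differences lay above 0, since the 2 medians fall on different genes.

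Calls among cell division and cell death genes went in both directions, beside 12.2% of all features called higher and 14.0% lower. Of 15 genes of replication and the cell cycle 5 were called higher and 1 lower, with CycB at 1.04, fzr, an activator of the anaphase-promoting complex, at 0.72, E2f1 at 0.63 and CycE at 0.60. Of 5 cell death genes 2 were called in each direction. Dark, the Apaf-1 adaptor, was at 0.89, 0.83 and 0.84 in the 6 h arrays and 0.11, 0.09 and 0.07 in the 3 h arrays. Dronc, the caspase that Dark activates, was at -1.01, -0.94 and -0.79 in the 6 h arrays and -0.24, -0.48 and -0.40 in the 3 h arrays. The steps of both differed from wild type, by 0.87 for Dark and -0.83 for Dronc (adjusted p = 0.00862 and 0.0186). No gene of either list was called with the term for slide runs, and the medians were -0.27 for the cell cycle and -0.25 for cell death, beside 0.12 and 0.13 without it.

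Markers of differentiated tissues had called shares on either side of the 26.2% called among all features, and each list is short. Of 8 neuronal genes 2 were called higher and 1 lower, and elav, a pan-neuronal RNA-binding protein, was at 0.67, 0.45 and 0.34 in the 6 h arrays, against -0.06, -0.12 and 0.04 in the 3 h arrays (0.54, adjusted p = 0.174). Of 11 haemocyte genes 3 were called higher, among them crq, a scavenger receptor, at 0.74. Of 11 muscle structural genes 1 was called, Mlp84B, a LIM protein of the sarcomere, with -3.74, -3.74 and -3.15 in the 6 h arrays and -2.21, -1.24 and -1.60 in the 3 h arrays. Both of the lowest values equal the lowest value of any array, so they mark the end of the scale. The muscle list lay low in all 6 arrays, with medians between -1.29 and -1.15 at 6 h and between -1.55 and -1.35 at 3 h. Of 5 genes of follicle cells and the eggshell, which embryos should lack, 1 was called, Cp38 at -0.38, and the medians lay between -0.22 and 0.01 in the 6 h arrays and between 0.08 and 0.12 in the 3 h arrays.

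The remaining lists are short too, and stand beside 12.2% of all features called higher and 14.0% lower. Of 6 glial genes 2 were called higher, nrv2 and Gli, which also belong to the septate junctions, and of 10 neuroblast genes 1, grh (grainy head), at 0.44. Of 12 genes of the amnioserosa and dorsal ectoderm 2 were called higher, peb (hindsight) at 0.56 and pnr (pannier) at 0.50, and 1 lower, egr (eiger), a tumour necrosis factor ligand. egr was at -1.77, -1.52 and -0.93 in the 6 h arrays, against 0.17, 0.22 and 0.39 in the 3 h arrays, a difference of -1.67. Of 9 early mesoderm and heart genes lmd, needed for muscle fusion, was called at 0.80 and twi at -0.70. Of 8 genes of the trachea 2 were called, sty (sprouty), an inhibitor of receptor tyrosine kinase signalling, at 0.72 and verm at 0.61, whose rows moved in opposite directions.

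Of 8 genes of fat body and gut, fkh (fork head) was called at 0.56 and Fbp1 at -0.41, and of 8 salivary gland and secretory genes 3 were called higher, TRAM, Gp93 and fkh. Of 10 cuticle and apical matrix genes 3 were called higher, Ccp84Ad, Osi6 and knk. Of 6 germ cell genes gcl was called at 0.85 and aub, a Piwi family protein, at -0.61. Of 4 yolk genes 1 was called, Yp2, a yolk protein gene, at -0.37. The shorter lists of ribosomal, mitochondrial energy and proteasome genes overlap the families above and had 2 of 5, 9 of 12 and 2 of 8 members called lower, with 1 proteasome gene called higher.

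Further families drawn up by name covered the nucleus, detoxification and the cuticle, and their counts too stand beside 12.2% of all features called higher and 14.0% lower. Of 19 Mediator subunits, which link enhancer factors to RNA polymerase II, 8 were called lower and none higher, and of 13 TBP-associated factors 7 were called lower and 1 higher. Nucleoporins had 5 of 18 called higher and 7 lower. Of 30 UDP-glycosyltransferases 4 were called higher, a share near that of all features, and none lower. Of 71 cytochrome P450 genes 4 were called higher and 5 lower, below the shares of all features. Among 55 Cpr cuticle protein genes 14 were called lower and 1 higher, of 22 Osiris genes 4 higher, and of 15 Tweedle genes 1 in each direction. Of 5 organic anion transporters 2 were called higher, of 6 tubulins 4 higher, and of 14 Jonah proteases none in either direction.

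Steroid hormone genes changed in both directions. spo (spook), an enzyme of ecdysone synthesis, was at -0.29, 0.10 and 0.09 in the 6 h arrays, against 1.29, 1.37 and 1.56 in the 3 h arrays, and dib, another enzyme of the pathway, fell by 0.51. EcR, the ecdysone receptor, rose by 0.45 and Hr39, a nuclear receptor, by 0.42. Of 11 measured members of this list 3 were called higher and 2 lower, beside 12.2% and 14.0% of all features.

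The step was then set against those of the other genotypes over all features. Against wild type 1047 features were called (8.43%), 464 with a higher (3.73%) and 583 with a lower (4.69%) step in eve-labelled embryos. Against ftz mutants 811 were called (6.53%), 411 higher (3.31%) and 400 lower (3.22%). With the term for slide runs these counts were 77 and 56.

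The largest excess over the wild type step was that of Prx6c, a peroxiredoxin, at 2.58 (SE 0.28, limma adjusted p = 9.28e-08). Its values were 2.61, 2.61 and 2.34 in the 6 h eve-labelled arrays and 1.5, 1.63 and 2.01 in the 3 h arrays, a difference of 0.80, while wild type changed by -1.77. LBR, the lamin B receptor, followed at 2.00, with a difference of 1.02 in eve-labelled embryos and -0.98 in wild type. Esp, a sulphate transporter-like protein of the epidermis, rose by 1.68 and bdg, of a neurotransmitter transporter family, by 1.11, where wild type changed by -0.16 and -0.55. On the other side stood CG15876 at -2.09, halo at -2.03 and Mlp84B, whose computed -2.10 has no exact size or rank because 2 of its 6 h values lie at the end of the scale. CG15876 was at -1.24, -0.91 and -0.91 in the 6 h arrays, against 0.85, 0.95 and 0.88 in the 3 h arrays, and changed by 0.17 in wild type and 0.09 in ftz mutants.

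The largest departures from the ftz step were of several kinds. eIF4E3, a cap-binding protein, changed by -0.17 in eve-labelled embryos and by 1.97 in ftz mutants, and CG43333 by 0.46 and 2.58. CG6282, at -2.35, and STUB1, a ubiquitin ligase, at -2.13, were called lower in eve-labelled embryos, at -2.10 and -1.40, and changed by 0.25 and 0.73 in ftz mutants. EAChm was at -0.23, -1.34 and -0.35 in the 6 h arrays, against -1.72, -2.62 and -2.51 in the 3 h arrays, which gave 1.64, and changed by -1.02 in ftz mutants.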

How the data were processed

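Sample and common reference were compared on 2-colour arrays. The authors deposited 1 table of log ratios, used as log2 values, for 63 arrays; the submitters' processing notes name limma, with no version, and give no other step here. Sorted values agreed over all arrays within 0.000784, which shows that quantile normalization had been done before deposit. The base and the side of the reference are not stated. With sample over reference, the wild type medians of the cellularization list were 0.99 at 2 h and -1.27 at 10 h. Those of the muscle structural list were -1.62 and -1.50, low at both times. By these 2 lists that direction is likely. The maternal list is less clear, since its medians were -0.56 at 2 h and -1.13 at 10 h. It fell, but lay below 0 already at 2 h. The median of each array was 0.00509 and the lowest r of any 2 arrays was -0.04.

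Of 20000 rows 13228 had values. Rows of 1 symbol, updated by gene ID, were averaged per array, which gave 9292 named genes and 3132 other features. Limma 3.58.1 (R 4.3.3, statmod 1.5.0) fitted 21 group means to 63 arrays with 42 residual degrees of freedom, and tests were 2-sided with Benjamini-Hochberg adjustment over 12424 features. Array number limits the precision: in simulated data of 12424 features the 6 h against 3 h contrast recovered 2%, 44%, 86% and 98% of changes of 0.25, 0.5, 1 and 2 log2 units, with 9 unchanged features called. The simulated noise was independent and held no slide runs, and far fewer features changed than were called here. The simulation therefore does not cover calls that follow slide runs.

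The 29 gene lists, the 24 families and the members were chosen with earlier results of these data known. Genes were named by a rule: eve and ftz; the 12 largest called differences in each direction whose rows agree and whose arrays do not overlap; up to 4 called members of a list; all measured pair-rule, segment polarity and homeotic genes; and the 8 (wild type) and 5 (ftz) largest differences between steps in each direction. Family members and uncalled members were named after their values were seen. Runs of slide numbers served as possible batches. Some slide numbers occur on more than 1 array, so neighbouring numbers may not belong to the same batch. Gene spans came from RefSeq. Promoter motifs, part of the plan, were not analysed here, and no positions are given because no build is stated.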

Additional observations from a re-analysis of the deposited data

Results flagged for a closer look

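Differences between the step of eve-labelled embryos and that of another genotype were tested directly in the limma model, and the largest named ones on either side are given as eve step minus the other step in log2 units. None of these 26 differences was past the threshold with a term for slide runs.

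Against the wild type step the largest were higher for Prx6c (2.58), LBR (2.00), CG14569 (1.94), Ccp84Ad (1.90), ogre (1.90), CG15047 (1.86), Esp (1.85) and bdg (1.67). They were lower for Mlp84B (-2.10, of no exact size or rank because 2 of its 6 h values are the lowest of any array), CG15876 (-2.09), halo (-2.03), term (-1.96), CG6282 (-1.96), Mgstl (-1.84), STUB1 (-1.82) and bard (-1.79).

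Against the ftz step they were higher for EAChm (2.66), CG4476 (2.53), Nepl15 (2.43), CG10344 (2.16) and shu (2.07), and lower for CG6282 (-2.35), eIF4E3 (-2.13), STUB1 (-2.13), CG43333 (-2.12) and pst (-2.01). Groups of 3 arrays were not tested for single outlying arrays.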

How the results depend on the processing

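Between 6 h and 3 h 3257 features were called. The count was 1397 with only the 6212 features of smaller SD tested (1319 of them among the 3257), 190 against a 1.5-fold change (all among them), 427 with slide runs as a fixed term (286 among them) and 2395 to 2928 without each array in turn. No paired analysis was possible because the labels give the 3 h and 6 h arrays no shared replicate numbers. The 1047 calls against the wild type step became 571, 1 and 77 under the first 3 of these, 654 to 1038 without each eve-labelled array; the 811 against the ftz step became 423, 4 and 56, 299 with slide runs as a random block, 1677 with only the 12 arrays compared and 377 to 738. The lists' 85 called members became 21, 15 and 18, and 68 to 81. The 24 largest genes all stayed called without each array, which their choice by size and non-overlap in these same arrays made likely. Of these 24, 8 stayed called with slide runs as a fixed term and 0 among the features of smaller SD, which held none of them. The cause of the other changes was not tested. The eve difference of -1.04 missed the threshold against a 1.5-fold change and with the fixed term (-0.29), and lay between -1.12 and -0.94 without each array.

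With the fixed term, signs turned for Ent2 (-0.079), alphaTub67C (-0.15), Kr (-0.12), Ocho (-0.25), TRAM (-0.32), CycB (-0.37), CycE (-0.21), COX4 (0.051), Dark (-0.31) and Prx6c (-0.29), and against the ftz step for CG6282 (0.17) and Nepl15 (-0.031). With rows kept apart they turned for hry (0.24) and verm (-0.0023). Alternatives added after the data were seen put eve-labelled embryos of 2 h in place of 3 h, with 4154 features called, 1924 of them among the 3257, and the eve difference turned to 0.33, as did gsb (0.23), ind (0.000395), verm (-0.022), Osi6 (-0.33), knk (-0.31), CycE (-0.000546), spo (0.0099), LBR (-0.017), CG14569 (-0.35), eIF4E3 (0.88) and CG4476 (-0.0083). With wild type at 7 h or 8 h in place of 6 h, 806 and 740 features were called against the wild type step. Centring, normal scores and other moderation turned no named gene.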
